A study of Mus musculus with 6 samples.

Results

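Pparg, Cebpa, Cebpb, Cebpd, Klf15, Fabp4, Plin1, Adipoq, Lpl and Cd36 are 10 genes that regulate the making of fat cells or are switched on early in it. They were chosen by name, and all 10 were measured among the 22180 genes with a value on the arrays. RNA came from fibroblasts of 129SV mouse embryos at E14.5, taken from the dorsal body wall. The embryos carried 1 Ebf2 allele marked with green fluorescent protein (GFP), so this reporter allele is shared by both groups. Dissociated cells that stained for PDGFRα, a receptor of mesenchymal cells, were sorted into an Ebf2(GFP)+ group and an Ebf2(GFP)- group, with 3 Affymetrix arrays in each, numbered 1 to 3 in both groups. The comparison asks whether the Ebf2-expressing fraction, which the series title calls a precursor population of brown and beige fat, already differed in its adipogenic genes at this stage. The labels do not say how many embryos or litters went into an array, so p-values measure only the spread between the 6 arrays, and that spread may be technical.

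Fat cell formation is driven by a cascade of transcription factors. C/EBPβ and C/EBPδ act first and induce PPARγ and C/EBPα, which keep each other on and activate genes of lipid uptake and storage. In the embryo, brown fat of the back arises from mesenchyme of the dorsal body wall, and lipid-filled cells appear there only late in gestation.

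The sort was visible in Ebf2, which lay between 8.16 and 9.21 on the log2 scale in GFP-negative arrays and between 11.93 and 12.04 in GFP-positive arrays, and Pdgfra lay between 12.90 and 13.24 on all 6. None of 8 measured fibroblast markers, the sorted gene Pdgfra among them, had a mean over the 6 arrays below 6.78. This 40th percentile of gene means is used here as a mark of dim genes, because no detection calls are given. By the same mean 1 of 16 macrophage and 1 of 18 endothelial markers lay below it, so the mark does not tell cell types apart. Of the 8 fibroblast markers, 2 were lower in GFP-positive cells and none was higher. Thy1 was 3.86-fold lower (limma adjusted p = 0.000276) and Lum 1.27-fold lower (limma adjusted p = 0.0295). In bulk RNA such as this, fewer cells of a type and less RNA per cell cannot be told apart.

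None of the 10 adipogenic genes differed between the groups by limma's test at an adjusted p under 0.05, a threshold passed by 6.49% of all genes tested. At an unadjusted p under 0.05 there were 4 (Adipoq, Cebpa, Cebpb and Cebpd), against 17.7% of all genes. In the same 4 genes the values of both groups did not overlap, against 22.0% of all genes. The direction was the same in all 3 same-numbered pairs for 7 of the 10 genes, higher in GFP-positive cells for 6 and lower for Cebpb, and 44.3% of all genes had such agreement. The median log2 difference of the 10, GFP-positive minus GFP-negative, was 0.19, against 0.016 for all genes. The shares of all genes given here include dim genes, whereas 8 of the 10 lay above the dim mark. With dim genes left out, 0 of 8 passed limma's test at an adjusted p under 0.05, against 1523 of 13308 genes.

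The array numbers paired the arrays by the correlations given with the methods, and with the replicate number as a block 2 of the 10 genes passed, against 10% of all genes. These were Fabp4, higher in GFP-positive cells, and Cebpb, lower. After centring each array on its median, 1 of the 10 passed, Adipoq, against 7.29% of all genes.

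**Figure D1:**
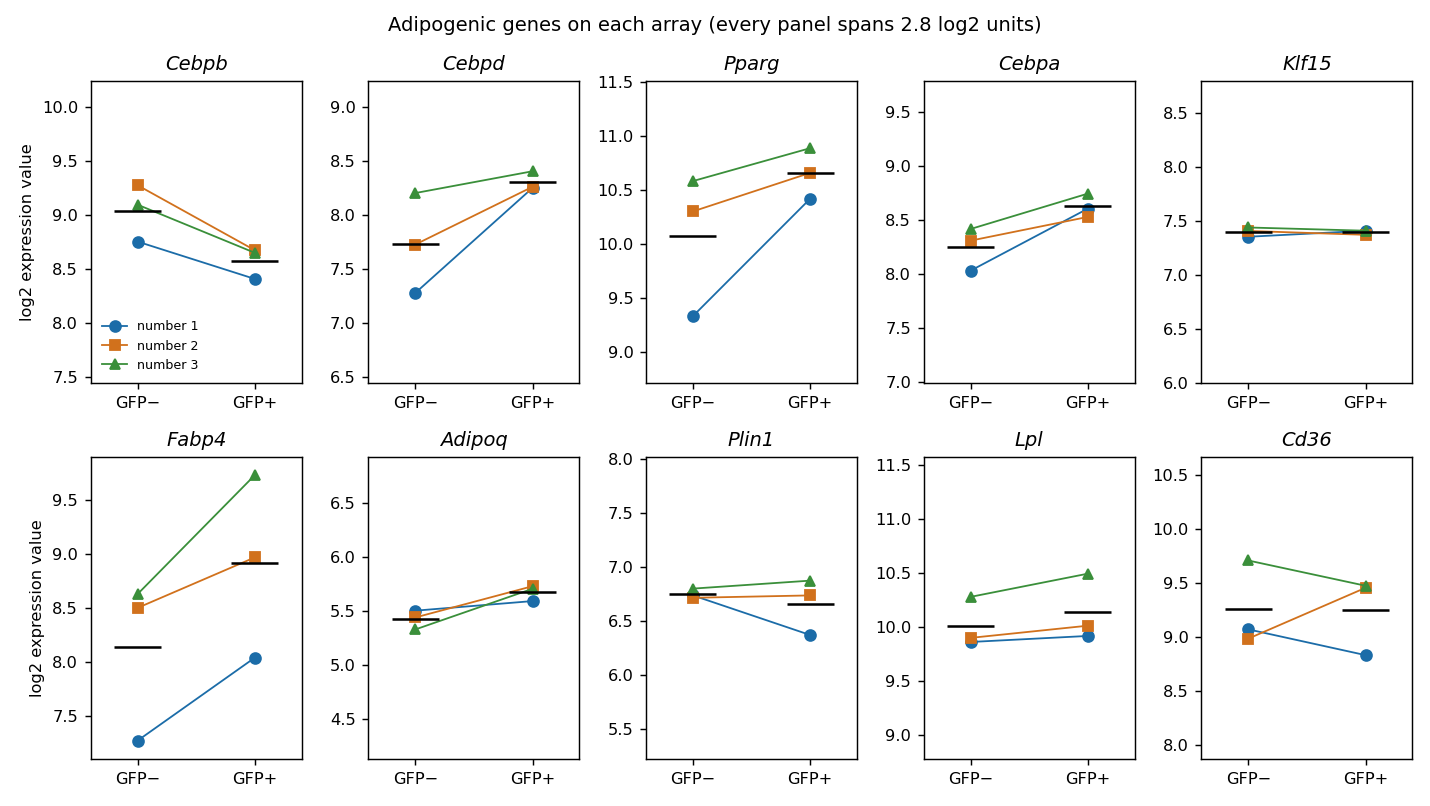
Log2 expression values of the 10 genes (y axis) in GFP-negative and GFP-positive cells (x axis), with 3 arrays a group. Lines join arrays of the same number, black bars are group means, and every panel spans 2.8 log2 units. Fabp4 and Pparg spread most within a group, Cebpb was lower on every line, and Klf15 stayed between 7.35 and 7.44.

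Of the early factors, Cebpb, which encodes C/EBPβ, was the only 1 of the 10 genes whose GFP-positive arrays all lay below its GFP-negative arrays. It read 8.75, 9.27 and 9.09 in negative arrays 1, 2 and 3, and 8.41, 8.67 and 8.65 in positive arrays 1, 2 and 3. The groups did not overlap, with a gap of 0.08 between the highest positive and the lowest negative array. Its mean was 9.04 ± 0.27 (SD, n = 3) in negative and 8.58 ± 0.15 (SD, n = 3) in positive cells. The log2 difference of −0.46 ± 0.14 SE (95% interval −0.81 to −0.12), or 1.38-fold lower, did not pass limma's test without the block (adjusted p = 0.137) and passed with it (adjusted p = 0.0171). The pair differences were −0.35, −0.60 and −0.45. It also passed without negative replicate 1 (limma adjusted p = 0.0454, log2 difference −0.61). It did not pass when any other 1 array was left out (limma adjusted p 0.235 to 0.369).

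Cebpb is also known as a gene of the response to stress and of macrophages. Of 15 genes known to respond to tissue dissociation, none passed limma's test (1 at an unadjusted p under 0.05), and with the block 6 fell and 1 rose. All 16 measured macrophage markers were lower there. The part of either list in the Cebpb difference was not tested.

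Cebpd, which encodes the companion factor C/EBPδ, pointed the other way. Its values were 7.28, 7.73 and 8.20 in negative arrays 1, 2 and 3 and 8.25, 8.26 and 8.41 in the positive arrays. The positive arrays lay close together above all negative ones, by a gap of only 0.05, while the negative arrays spread over 0.93. The log2 difference was 0.57 ± 0.22 SE (95% interval 0.06 to 1.08, limma adjusted p = 0.229). The pair differences of 0.97, 0.53 and 0.20 shared a sign but not a size. Without negative replicate 3, the array nearest the positive group, the difference was 0.80 and passed (limma adjusted p = 0.0425). It did not pass when any other 1 array was left out (limma adjusted p 0.302 to 0.441), and was 0.34 without negative replicate 1.

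Pparg, which encodes the nuclear receptor PPARγ that is required for fat cells, was well above the dim mark on all 6 arrays. It read 9.33, 10.30 and 10.58 in the negative arrays and 10.42, 10.66 and 10.89 in the positive arrays. The groups overlapped, since negative array 3 exceeded positive array 1, and negative array 1 stood 0.97 below the next lowest array. Means were 10.07 ± 0.66 (SD, n = 3) and 10.65 ± 0.23 (SD, n = 3), a 1.5-fold difference with a 95% interval of 0.89 to 2.52. That log2 difference of 0.58 ± 0.31 SE did not pass limma's test (adjusted p = 0.417, or 0.103 with the replicate block). All 3 pairs were higher in the positive array, by 1.09, 0.36 and 0.31. The difference was 0.21 when negative replicate 1 was left out and 0.84 when negative replicate 3 was.

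Pparg had a single probe set naming it alone, and which of its transcripts that probe set covers was not analysed here. RefSeq (GRCm38.p6) promoter entries matched 7 of the 10 genes at 9 starts, 3 of them of Pparg, and Fabp4, Cebpd and Lpl had none. The 250 bases before each start were searched on both strands for a C/EBP core (TTGCNNAA). Only the Pparg start farthest downstream and the Plin1 start held it, against 9.56% of 32851 promoters. They are shown because C/EBP factors, whose own levels are given here, are known regulators of Pparg. The capitals mark the core on either strand, with first bases 215 and 16 before the start of Pparg and 187 and 58 before that of Plin1. The Pparg window is chr6:115421816-115422065 (plus strand) and the Plin1 window chr7:79732777-79733026 (minus strand), each written 5′ to 3′ on the strand of its gene.
Pparg: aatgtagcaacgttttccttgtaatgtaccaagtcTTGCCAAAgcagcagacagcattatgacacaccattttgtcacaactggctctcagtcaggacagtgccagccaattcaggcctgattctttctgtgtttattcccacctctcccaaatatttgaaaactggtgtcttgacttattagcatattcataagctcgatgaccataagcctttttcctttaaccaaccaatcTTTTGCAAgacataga
Plin1: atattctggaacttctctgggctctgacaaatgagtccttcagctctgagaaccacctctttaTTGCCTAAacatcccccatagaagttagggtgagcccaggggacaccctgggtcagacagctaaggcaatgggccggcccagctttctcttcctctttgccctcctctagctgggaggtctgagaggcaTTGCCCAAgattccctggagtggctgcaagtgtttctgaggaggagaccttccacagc
None of the 9 windows held the EBF palindrome (TCCCNNGGGA, in 0.779% of promoters) or the PPAR direct repeat (AGGTCANAGGTCA, in 0.0335%). The TATA box (TATAAA, in 12.4%) was found at Cebpa and at another Pparg start. Neither window with a C/EBP core held any of these other 3 motifs, so no match overlapped another. A match describes only the letters of the window.

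Cebpa, which encodes the C/EBPα that cooperates with PPARγ, read 8.03, 8.31 and 8.41 in negative and 8.6, 8.53 and 8.74 in positive arrays. Each positive array was above every negative one, by a gap of 0.11. Its log2 difference of 0.37 ± 0.11 SE, 1.30-fold with a 95% interval of 1.08 to 1.56, did not pass (limma adjusted p = 0.123, or 0.0518 with the block). Pair differences were 0.58, 0.22 and 0.33.

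Klf15, a Krüppel-like factor that rises late in adipogenesis, was the flattest of the 10. It lay between 7.35 and 7.44 in negative and between 7.37 and 7.41 in positive arrays, so that the groups overlapped fully. The log2 difference of −0.003 ± 0.05 SE had a 95% interval of −0.12 to 0.12 (limma adjusted p = 0.987).

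**Figure D2:**
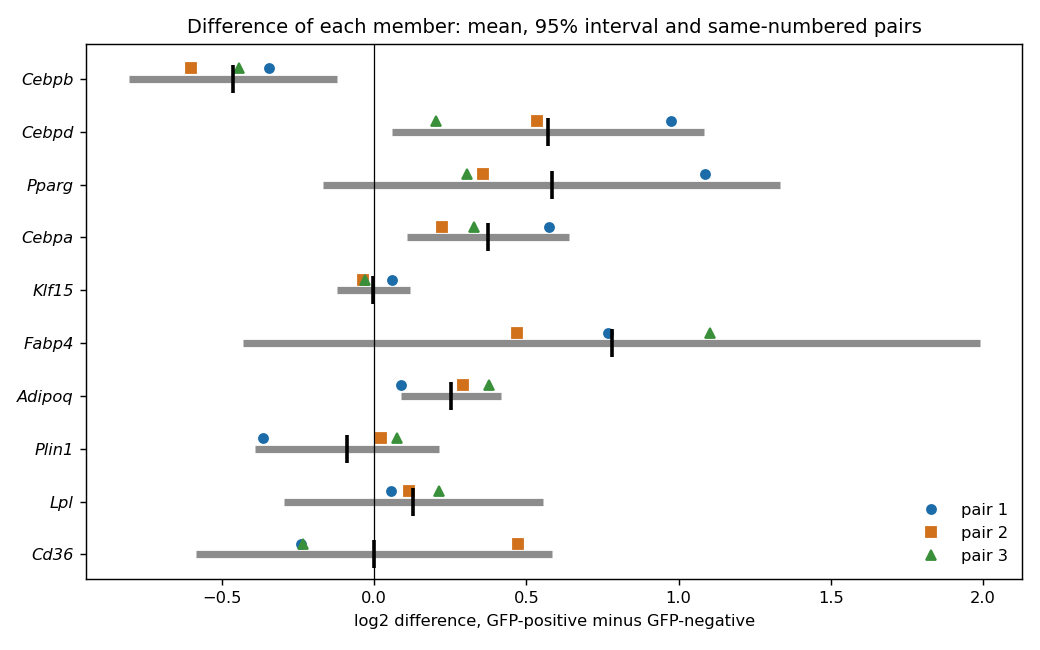
Log2 difference between GFP-positive and GFP-negative cells (x axis) for each of the 10 genes (y axis). Black ticks are differences of group means, grey bars limma's 95% intervals without the block, and coloured symbols the 3 same-numbered pairs. The intervals of Cebpb, Cebpd, Cebpa and Adipoq do not reach 0 before adjustment, and that of Fabp4 is the widest, from −0.43 to 1.99.

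Among genes that PPARγ and C/EBPα activate, Fabp4, the fatty acid binding protein of adipocytes, had the largest difference of the 10 and the widest spread. It read 7.27, 8.50 and 8.63 in negative arrays 1, 2 and 3 and 8.04, 8.97 and 9.73 in positive arrays 1, 2 and 3. The groups overlapped, and within each group array 1 was lowest and array 3 highest. The ranges within a group, 1.36 and 1.69, exceeded the log2 difference of 0.78 ± 0.51 SE, which was 1.72-fold with a 95% interval of 0.742 to 3.97 (limma adjusted p = 0.516). Within pairs the positive array was higher by 0.77, 0.47 and 1.10. With the replicate number as a block the standard error was 0.12 and the gene passed (limma adjusted p = 0.0224). The difference was 0.35 without negative replicate 1, 0.37 without positive replicate 3 and 1.22 without positive replicate 1.

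Adipoq, the gene of the hormone adiponectin from mature fat cells, was dim throughout. It read 5.50, 5.44 and 5.33 in negative and 5.59, 5.73 and 5.71 in positive arrays, all below 6.78. The groups did not overlap, with a gap of 0.09. Its log2 difference was 0.25 ± 0.07 SE (95% interval 0.09 to 0.42, limma adjusted p = 0.0955, or 0.104 with the block). It passed after median centring (adjusted p = 0.0456), a step that raised the median difference of all genes by 0.056. At such low signal a fold can understate a difference.

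Plin1, the coat protein of lipid droplets in fat cells, was also below the dim mark on average. Its negative arrays lay between 6.71 and 6.80, and its positive arrays read 6.37, 6.74 and 6.87. The groups overlapped, and the log2 difference was −0.09 ± 0.13 SE (95% interval −0.39 to 0.21, limma adjusted p = 0.792). It was 0.06 without positive replicate 1, the lowest array.

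Lpl and Cd36, which serve lipid uptake, were readily measured and did not pass. Lpl, the lipase that frees fatty acids from lipoproteins, read 9.86, 9.90 and 10.28 in negative and 9.92, 10.01 and 10.50 in positive arrays. The groups overlapped and array 3 was highest in each. All 3 pairs were higher in the positive array, by 0.06, 0.11 and 0.21, and the log2 difference was 0.13 ± 0.18 SE (95% interval −0.30 to 0.55, limma adjusted p = 0.791, or 0.259 with the block). A dim probe set of Lpl (mean log2 level 5.68) differed by 0.02 ± 0.06 SE (limma adjusted p = 0.895 in a fit of all single-gene probe sets).

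Cd36, a fatty acid transporter, read 9.07, 8.99 and 9.71 in negative and 8.83, 9.46 and 9.48 in positive arrays. The groups overlapped almost fully. The pairs disagreed, with differences of −0.24, 0.47 and −0.23, and the log2 difference of the means was −0.001 ± 0.24 SE (95% interval −0.59 to 0.58, limma adjusted p = 0.999). On the fold scale this interval runs from 0.666 to 1.5. Leaving out negative replicate 3 gave 0.23, and leaving out negative replicate 2 gave −0.14.

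The 10 genes varied more between arrays of a group than most genes did. The SD within groups was above the median of all genes (0.10 on the log2 scale) for 8 of them. Fabp4 (SD 0.80) exceeded 99.8% of all genes, Pparg (0.49) 99.2%, Cd36 (0.38) 98.3%, Cebpd (0.33) 97.6% and Lpl (0.27) 95.8%, whereas Adipoq (0.08) and Klf15 (0.03) lay at 37.5% and 6.4%. For 7 of the 10 genes array 3 was the highest in both groups, as it was for 12.8% of all genes. Those 7 were Pparg, Cebpa, Cebpd, Fabp4, Plin1, Lpl and Cd36. Array 1 was the lowest in both groups for 5 of the 10 genes, against 20.0% of all genes. Genes that vary together are not separate observations of the arrays.

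The genes whose profile over the 6 arrays lay nearest to that of Pparg, among 13307 other genes above the dim mark, were Mfap5, Itih5 and Tfpi2. Each gene was centred on its own mean, and the root mean square difference in log2 units was 0.086, 0.122 and 0.147, where Pparg itself varied by 0.497 around its mean. Mfap5, a glycoprotein of microfibrils, read 10.81, 11.59 and 12.02 in negative and 11.86, 11.94 and 12.37 in positive arrays, so it too was lowest in negative array 1. Nearest to Fabp4, which varied by 0.761, were Snord11, Dpep1 and Pi16, at 0.319, 0.333 and 0.348. Pi16, a peptidase inhibitor gene of fibroblasts, read 8.56, 9.60 and 10.32 in negative and 9.60, 9.60 and 10.79 in positive arrays. None of these 6 genes passed limma's test (lowest adjusted p = 0.341), and the profiles of Fabp4's neighbours were less close than those of Pparg's.

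Other genes of the pathway were grouped by role. Of the activators 3 of 20 passed, of the inhibitors 3 of 19 (15.8%) and of the lipid and adipocyte genes 5 of 33 (15.2%), against 6.49% of all genes. The lists held few dim genes, so that share is not a like background. With dim genes left out, 3 of 20, 3 of 17 and 5 of 26 passed, against 1523 of 13308 genes. Over all genes, 2.65% passed as higher and 3.84% as lower. Of 20 other activators of adipogenesis, 2 rose and 1 fell, with a median log2 difference of 0.023. Nr3c1, the glucocorticoid receptor gene, lay between 10.57 and 10.70 in negative and between 10.92 and 10.99 in positive arrays (0.30 ± 0.06 SE, limma adjusted p = 0.0296). Nfib, a nuclear factor I gene, lay between 12.59 and 12.62 and between 12.83 and 12.88 (0.25 ± 0.05 SE, limma adjusted p = 0.0304). The coactivator gene Ncoa1 fell 1.52-fold, from 11.44, 11.33 and 11.19 in negative to 10.74, 10.75 and 10.68 in positive arrays (−0.60 ± 0.07 SE, limma adjusted p = 0.00626). The calls of Nr3c1 and Nfib ended without any 1 array (limma adjusted p up to 0.116 for each), and that of Ncoa1 held in all 6 such fits (up to 0.0351).

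Of 19 measured inhibitors of adipogenesis, 2 rose and 1 fell (3 and 2 with the block), with a median of 0.058. Trib2, a pseudokinase gene, rose 1.47-fold, from 10.37, 10.07 and 10.17 to 10.92, 10.72 and 10.65 (0.56 ± 0.10 SE, limma adjusted p = 0.0265). Klf7, a Krüppel-like repressor of adipogenesis, rose 1.39-fold, from between 9.70 and 9.81 to between 10.19 and 10.24 (0.47 ± 0.06 SE, limma adjusted p = 0.0051). Sox9, the cartilage factor that also holds back adipogenesis, fell 1.37-fold, from between 11.02 and 11.29 to between 10.62 and 10.70 (limma adjusted p = 0.0229). None of these 3 had overlapping groups. Leaving out 1 array ended the call of Trib2 except without negative replicate 1 (limma adjusted p up to 0.0892), and that of Sox9 without negative replicate 2 or any 1 positive replicate (up to 0.0935). Klf7 lost its call only when its probe sets were averaged (difference 0.30, limma adjusted p = 0.0612). Dlk1, the preadipocyte inhibitor known as Pref-1 and named after its value was seen, differed by 0.13 (limma adjusted p = 0.341).

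Of 33 measured lipid and adipocyte genes, 1 rose and 4 fell (2 and 4 with the block), with a median of −0.004. Cav1, the caveolin of the cell surface pits that are dense in fat cells, fell 1.84-fold, from 8.83, 9.21 and 8.94 to 7.87, 8.24 and 8.24 (−0.88 ± 0.14 SE, limma adjusted p = 0.0141). Angptl4, a secreted inhibitor of lipoprotein lipase and a PPAR target, fell 1.64-fold, from 10.59, 10.67 and 10.52 to 9.83, 9.79 and 10.02 (−0.71 ± 0.08 SE, limma adjusted p = 0.00395). The calls of these 2 held without any 1 array (limma adjusted p up to 0.0484 and 0.0268). Cav1 is also abundant in endothelial cells, of whose 18 measured markers 1 rose and 2 fell, and their part in its fall was not tested.

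Bscl2, the seipin gene of lipid droplet assembly, fell 1.32-fold (−0.40 ± 0.06 SE, limma adjusted p = 0.0157). Its negative arrays lay between 11.155 and 11.348, and all 3 positive arrays read the same 10.842. Agpat2, an enzyme of triglyceride synthesis, fell 1.2-fold (−0.26 ± 0.05 SE, limma adjusted p = 0.0394). Trarg1, a regulator of the glucose transporter of fat and muscle, rose 1.47-fold, from between 6.48 and 6.78 to between 7.02 and 7.31 (0.56 ± 0.10 SE, limma adjusted p = 0.0271), and its negative mean lay below the dim mark. The call of Bscl2 ended without any 1 positive replicate (limma adjusted p up to 0.0702), that of Agpat2 without any 1 array (up to 0.135) and after median centring (0.112). Trarg1 lost its call when array 2 or 3 of either group was left out (up to 0.103).

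**Figure D3:**
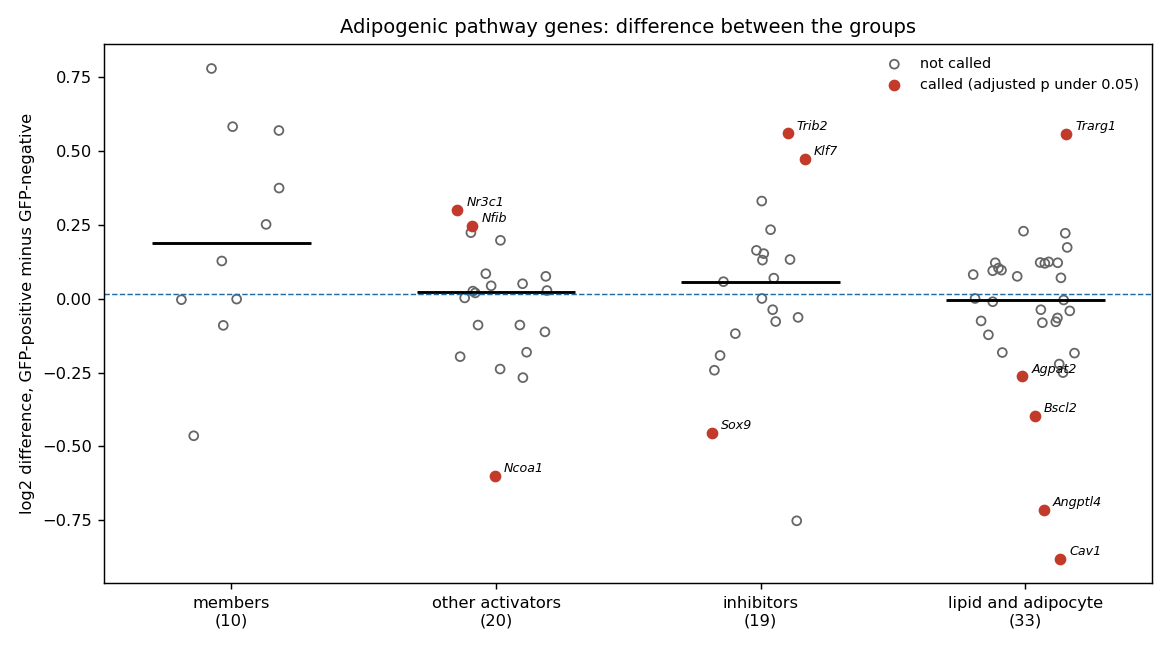
Log2 difference between GFP-positive and GFP-negative cells (y axis) of the 10 genes and of 3 lists of other pathway genes (x axis, number measured in brackets). Filled points passed limma's test, black bars are list medians and the dashed line is the median of all genes, 0.016. Of the 4 groups plotted, the 10 genes have the highest median, 0.19, and no filled point.

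Fabp4, Cd36, Lpl and Cebpb are also expressed by cells other than fat precursors, so the markers of such cells were read on the same arrays. Sorting for PDGFRα would be expected to remove most macrophages, endothelial cells and muscle fibres. The mean log2 level of 16 macrophage markers lay between 9.26 and 10.24 in negative and between 7.04 and 8.04 in positive arrays, and all 16 fell, among them Adgre1 and Mrc1 (limma adjusted p = 0.00923 and 0.0114). Its means were 9.79, 9.26 and 10.24 in negative arrays 1, 2 and 3 and 7.04, 7.76 and 8.04 in positive arrays 1, 2 and 3. Array 3 was thus highest in both groups, as for Pparg, Cebpa, Cebpd, Fabp4, Plin1, Lpl and Cd36. Within each group, the order of the arrays by the macrophage mean was that of Cd36 and Plin1. The negative arrays of Plin1 spanned only 0.085. In the positive arrays the order was also that of Pparg, Cebpd, Fabp4 and Lpl, but not of Cebpa. The macrophage mean was lowest in negative array 2, whereas Pparg, Cebpa, Cebpd, Fabp4 and Lpl were lowest in negative array 1. The share of all genes with these orders was not computed. Normalized array values hold no true 0, and by the mean over the 6 arrays 1 of the 16 (Ptprc) lay below the dim mark. By the mean of the positive arrays Fcgr1, Cd14 and Aif1 lay below it as well. Of 18 endothelial markers, 1 rose (Emcn) and 2 fell (Cdh5 and Erg), and the list mean lay between 8.24 and 8.75 in negative and between 8.15 and 8.41 in positive arrays. With the block, 1 rose and 4 fell. Array 2 had the highest endothelial mean in both groups. Of 15 skeletal muscle markers, 1 rose (Tnnt1) and none fell, or 4 and 0 with the block, with list means between 7.29 and 7.61 in negative and between 7.51 and 7.78 in positive arrays. The dissociation list lay between 11.45 and 11.77 and between 11.13 and 11.60. The part of these cells in the values of the 10 genes was not tested.

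**Figure D4:**
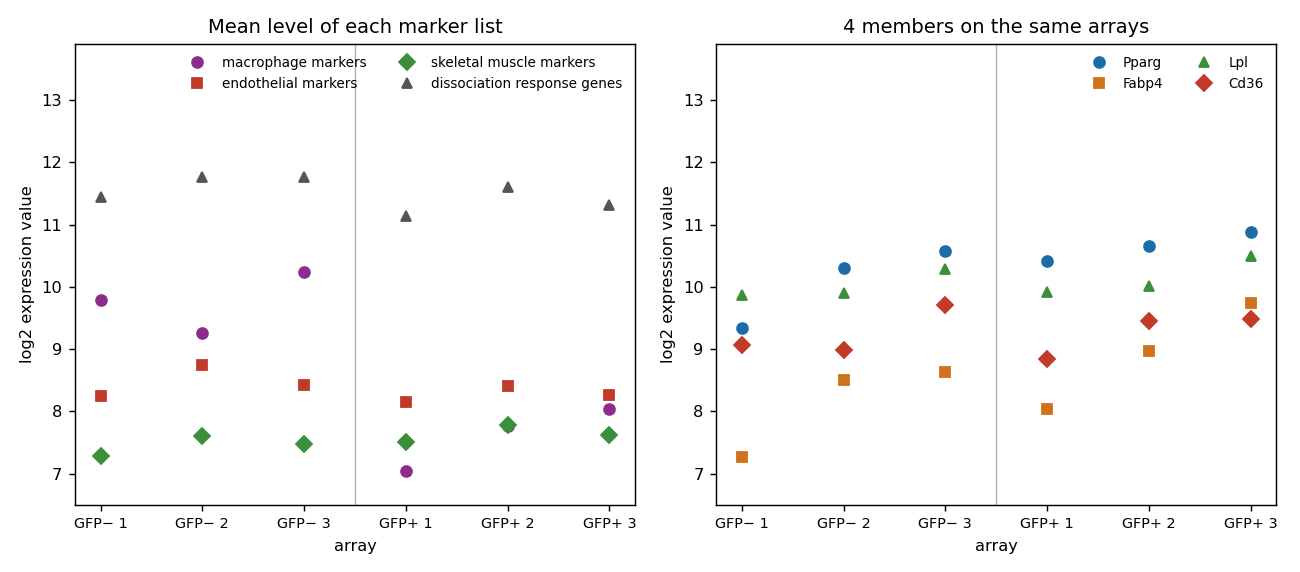
Mean log2 level of each marker list (left) and log2 values of 4 genes (right) on the 6 arrays (x axis), with GFP-negative arrays left of the grey line. The macrophage mean lay above 9 in negative and below 8.1 in positive arrays, whereas Fabp4 and Pparg were lowest in negative array 1.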

How the data were processed

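The authors deposited 1 log2 value per probe set and array, made with RMA per the submitters' processing notes, which also name limma. Library files and filters are not stated there, and the log2 scale was read from the values (3.414 to 14.319, array medians 6.657 to 6.712). RMA equalizes the arrays' distributions and so hides a shift common to most genes. Of 41345 probe sets, 23521 list 1 gene and only these were named. Each of 22180 genes (1082 with several probe sets) was represented by its brightest probe set on average over the 6 arrays, with no filter. The groups were compared in limma 3.58.1 (lmFit, eBayes; R 4.3.3), two-sided, with Benjamini-Hochberg adjustment over all genes, called at 0.05. On simulated data from the same 22180 genes this recovered 53.4%, 90.9% and 99.5% of genes altered by 0.5, 1 and 2 on the log2 scale, with 4.19% of calls false. The altered genes were picked at random from all genes, and noise was drawn separately for each array. These shares therefore do not give the recovery of genes with a large SD within groups, such as Fabp4 (0.80) and Pparg (0.49). The number of arrays limits the precision.

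Same-numbered arrays deviated from their group means together (correlations 0.408, 0.314 and 0.519 over genes), and differently numbered ones did not (−0.384 to −0.024). Deviations within a group cancel out for each gene, so positive same-number correlations make the others negative on average. The second range is thus no separate evidence of pairing. The labels do not say what a number shares, so this pairing comes from the data. The genes and lists were chosen with earlier results of these data known. Named genes are the 10, the sorted genes, called genes of 3 pathway lists (up to 4 per direction) and the 3 profiles nearest to Pparg and to Fabp4. Of the called macrophage markers only Adgre1, Mrc1 and those with a positive mean below the dim mark are named. These were chosen after their values were seen, whereas called markers of the other lists are named in full without the block. Alternatives were the replicate block, median centring, quantile normalization, a filter on dim genes, averaged probe sets, eBayes with trend or robust, array weights, and each array left out.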

Additional observations from a re-analysis of the deposited data

How the results depend on the processing

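With the replicate block 2228 genes passed in place of 1439, 2 of the 10 adipogenic genes in place of 0, and 5 inhibitors in place of 3. The block changed no other call among the 10 genes and the named pathway genes. Leaving out 1 array gave 629 to 1067 genes over the whole table, 0 to 1 of the 10 genes, 1 of the activators in every such fit, 1 to 3 inhibitors and 2 to 4 lipid and adipocyte genes. After median centring 1 of the 10 genes passed, and under quantile normalization, the dim filter, averaged probe sets, trend, robust and array weights 0 did. Differences near 0 changed sign: Plin1 to 0.06 (−0.20 to 0.06 over arrays left out), Lpl to −0.05 (−0.05 to 0.26), Cd36 to 0.06 after median centring (−0.14 to 0.23 over arrays left out), and Klf15 to 0.05 after median centring and 0.02 after quantile normalization (−0.03 to 0.02 over arrays left out). The cause was not tested. Adipoq and Plin1 have no value under the dim filter. No signal over background is given, so whether the array's lower range limited a difference of dim genes was not tested.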
